A study of Mus musculus with 4 samples.

Results

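The genes described here encode 6 fibroblast growth factors and 4 of their receptors: Fgf1, Fgf2, Fgf7, Fgf9, Fgf10 and Fgf18, and Fgfr1, Fgfr2, Fgfr3 and Fgfrl1. They were taken by gene symbol, and all 10 were found among the 28545 genes of the deposited tables. Fibroblast growth factors are signalling proteins that bind receptor tyrosine kinases together with heparan sulfate chains on the cell surface, and the receptors pass the signal to the RAS and MAP kinase cascade. In the mouse uterus several of these ligands are made by stroma and act on the epithelium through FGFR2, which takes part in the growth of the epithelium under estrogen, while the stromal transcription factor HAND2 holds ligand production down under progesterone.

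Polyadenylated RNA was sequenced from 4 mouse libraries labelled uterus and endometrium, all from the proestrus stage of the cycle. A pair of libraries carries the label SMAD7 Cre+/- with the treatment entry CKO, and the other pair the label SMAD7fl/fl with the treatment entry blank; the design text of the series calls the control mice WT. The loxP sites were put into Smad7 by injecting a guide RNA, a donor vector and Cas9 mRNA into fertilized eggs, and Cre recombinase removes DNA between such sites. The sources used here name no Cre driver, deleted exons or age. They do not state either that each library is a different animal, and the spread behind the p-values may therefore be technical. Below, these are the Cre-labelled and the floxed-labelled libraries, with n = 2 each.

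Total counts were 19830568 and 17444368 in the Cre-labelled libraries and 22950532 and 18193504 in the floxed-labelled ones. Smad7, the targeted gene, goes against the labels: it held 49.9 and 33.9 FPKM in the Cre-labelled libraries, against 7.79 and 7.81 FPKM in the floxed-labelled ones. FPKM is the count scaled to gene length and to the total count of the library. The directions below are therefore those between labels, and a loss of Smad7 was not verified. The floxed-labelled libraries were also less alike (biological coefficient of variation 0.401) than those labelled Cre (0.163), and each member is given with either floxed library left out where that matters. Across all genes tested, the Spearman correlation between the floxed-labelled libraries was 0.908, below their 0.912 to 0.920 with the Cre-labelled ones. The Cre-labelled pair was at 0.985. Markers fixed for uterine epithelium and stroma were all measured, and smooth muscle markers, which belong to the myometrium and to vessel walls, were abundant too, with summed levels of 2934 and 2629 FPKM in the Cre-labelled libraries and 1849 and 1571 FPKM in the floxed-labelled ones.

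As regulatory context, 250 bases upstream of the RefSeq start (GRCm38.p6) are shown for 3 ligand genes: Fgf2 and Fgf10, whose values were higher in both Cre-labelled libraries, and Fgf18, whose groups overlapped. For Fgf2 and Fgf10 the RefSeq start lies inside the longer gene that GENCODE annotates. Capitals mark CAGAC or its reverse complement GTCTG, the core letters that SMAD proteins bind, searched on both strands.
Fgf2, chr3:37348403-37348652, plus strand: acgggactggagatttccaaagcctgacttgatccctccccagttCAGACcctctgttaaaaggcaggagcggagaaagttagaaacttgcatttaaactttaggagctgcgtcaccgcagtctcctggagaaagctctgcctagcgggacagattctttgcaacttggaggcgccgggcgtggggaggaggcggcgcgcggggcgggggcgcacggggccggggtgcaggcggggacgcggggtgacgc
Fgf10, chr13:118714449-118714698, plus strand: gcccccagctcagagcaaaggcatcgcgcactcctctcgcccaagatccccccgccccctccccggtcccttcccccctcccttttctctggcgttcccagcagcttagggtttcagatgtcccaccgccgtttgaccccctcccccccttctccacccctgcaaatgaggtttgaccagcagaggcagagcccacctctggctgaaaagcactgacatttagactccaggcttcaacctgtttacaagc
Fgf18, chr11:33147401-33147650, minus strand: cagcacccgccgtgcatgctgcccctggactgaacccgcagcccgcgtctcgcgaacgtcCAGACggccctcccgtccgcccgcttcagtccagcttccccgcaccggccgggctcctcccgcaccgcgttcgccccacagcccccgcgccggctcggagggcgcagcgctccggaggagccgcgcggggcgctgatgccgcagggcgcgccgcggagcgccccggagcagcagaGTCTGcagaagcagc
The window of Fgf2 held 1 match, that of Fgf10 held 0 and that of Fgf18 held 2. Of the 8 members searched, 4 had a match (Fgf2, Fgf7, Fgf9 and Fgf18), and 42.2% of 32851 promoter windows of the same length had one. Fgf1 and Fgfr1 were not searched. The matches are a description of these letters only.

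The comparison asks how the transcripts of this pathway differ between endometrium in which Smad7, an inhibitor of TGF-beta and BMP signalling, was to be deleted and its control. Fgf1, Fgf2 and Fgfr1 had the clearest differences, and all 3 were higher in the Cre-labelled libraries, by 6.06-fold, 2.46-fold and 1.85-fold. Fgfr2 was not higher, so that the balance between the receptor genes Fgfr1 and Fgfr2 differed between the groups. No member passed the test at an adjusted p under 0.05 over all 13513 genes tested, and neither did any other gene: edgeR's quasi-likelihood test called 0 of them in either direction, while 987 (7.3%) had an unadjusted p under 0.05 and were higher, and 889 (6.58%) lower. DESeq2 called 438 genes higher (3.24%) and 405 lower (3%), among them 2 members, Fgf1 and Fgf2, both higher. The edgeR fit of all genes with a count called the same 2 members, and 3.63% of genes, higher. With the filter kept, edgeR called 3 members higher without floxed replicate 1 (Fgf1, Fgf2 and Fgfr1) where 17.5% of all genes were, and without floxed replicate 2 it called 4 (those and Fgf10) where 10.4% were; the lone floxed library is then assumed to vary like the Cre-labelled pair. Of the 10 members, 8 had a mean of at least 1 FPKM and were tested, all 8 also reaching that mean in each group alone, and Fgf9 and Fgfr3 were not. At an unadjusted p under 0.05, 3 of these 8 were higher and 0 lower. In 6 of the 8 both Cre-labelled libraries lay above both floxed-labelled ones on the scaled counts, where 24.7% of all genes tested did. The median log2 fold change of the 8 was 0.61, against -0.033 over all genes tested. The members were chosen with earlier results of these data known, so these counts and this median only describe them.

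**Figure D1:**
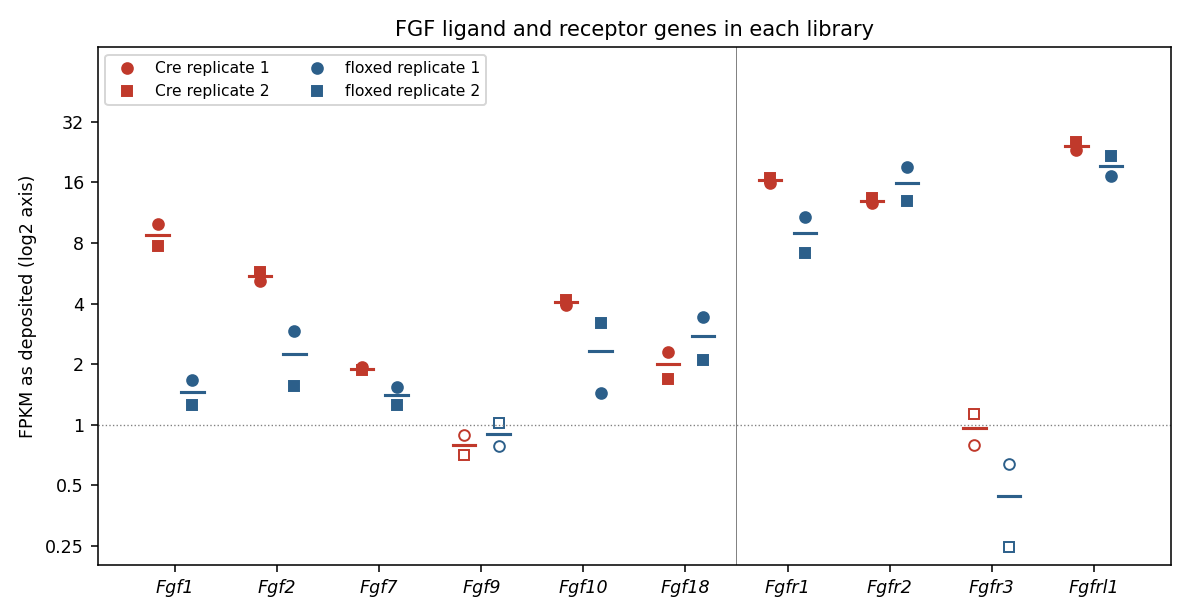
FPKM of the 10 FGF genes in each library on a log2 axis, with the Cre-labelled libraries in red and the floxed-labelled ones in blue. Points are libraries, short bars are group means, open points mark the 2 genes below the mean of 1 FPKM (dotted line) needed for testing, and Fgf1 shows the widest gap, with 9.90 and 7.70 FPKM in the Cre-labelled libraries against 1.66 and 1.25 FPKM in the floxed-labelled ones.

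Fgf1 and Fgf2 encode ligands without a classical secretion signal, and FGF1 is known for binding all of the signalling receptors. Fgf1 held 9.90 and 7.70 FPKM in the Cre-labelled libraries (1072 and 734 counts), against 1.66 and 1.25 FPKM in the floxed-labelled ones (208 and 124 counts). Both Cre-labelled libraries were far above both floxed-labelled ones, and the libraries differed 1.28-fold within the Cre-labelled pair and 1.33-fold within the floxed-labelled pair. The means were 8.80 ± 1.55 FPKM in the Cre-labelled libraries and 1.45 ± 0.291 FPKM in the floxed-labelled ones (SD, n = 2 each). The log2 fold change was 2.60 ± 0.27 (SE); edgeR's adjusted p of 0.0919 did not pass, and that of DESeq2, 4.9e-11, did. The log2 fold change ran from 2.40 to 2.77 with any 1 library left out. Such a fit takes its spread from the group that keeps 2 libraries, so only the sizes are given here. Fgf1 (ENSMUSG00000036585) lies on chromosome 18 of GRCm38 from 38838673 to 38929472 on the minus strand, and none of its exon bases are shared with another annotated gene.

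Fgf2 held 5.17 and 5.75 FPKM in the Cre-labelled libraries (695 and 680 counts), against 2.91 and 1.56 FPKM in the floxed-labelled ones (453 and 192 counts). The groups did not overlap, and the floxed-labelled libraries differed 1.87-fold from each other. The log2 fold change was 1.30 ± 0.33 (SE; adjusted p = 0.22 in edgeR's test and 0.0272 in DESeq2), and it was 1.76 without floxed replicate 1 and 0.95 without floxed replicate 2. Fgf2 (ENSMUSG00000037225, chromosome 3, 37348346 to 37410108, plus strand) shares 13.2% of its exon bases with other genes, among them Nudt6 on the opposite strand; the labels do not say that counting used strand, so reads there cannot be told apart. Within a library, the ratio of Fgf2 to Fgf1 was 0.522 and 0.746 in the Cre-labelled libraries, against 1.75 and 1.25 in the floxed-labelled ones. Fgf1 was thus the more abundant of the pair per length in both Cre-labelled libraries, and Fgf2 in both floxed-labelled ones (exact two-sided permutation p = 0.333 on the log2 ratio, the smallest that 2 against 2 libraries allow).

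Fgf7 and Fgf10 encode ligands that mesenchyme secretes and that act on epithelial cells through the IIIb splice form of FGFR2. Fgf10 held 3.95 and 4.16 FPKM in the Cre-labelled libraries, against 1.44 and 3.21 FPKM in the floxed-labelled ones. Both Cre-labelled libraries were higher, but floxed replicate 2 stood close below them and floxed replicate 1 far below. The log2 fold change was 0.78 ± 0.46 (SE, adjusted p = 0.502 in edgeR's test), and it was 0.28 without floxed replicate 1 and 1.53 without floxed replicate 2, so 1 library decided its size. Fgf7 held 1.93 and 1.87 FPKM in the Cre-labelled libraries, against 1.54 and 1.25 FPKM in the floxed-labelled ones, a log2 fold change of 0.44 ± 0.36 (SE, adjusted p = 0.614 in edgeR's test). The groups did not overlap, and the difference was of about the size of its error. The ratio of Fgf10 to Fgf7 was 2.05 and 2.22 in the Cre-labelled libraries, against 0.933 and 2.57 in the floxed-labelled ones, which overlapped (exact two-sided permutation p = 1.0).

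Fgf9 and Fgf18 encode ligands that bind mainly the IIIc forms of the receptors. Fgf18 held 2.29 and 1.69 FPKM in the Cre-labelled libraries, against 3.41 and 2.08 FPKM in the floxed-labelled ones. The groups overlapped, and the gene rested on 35 to 93 counts per library. Its log2 fold change was -0.46 ± 0.48 (SE, adjusted p = 0.691 in edgeR's test), and it was -0.11 and -0.73 when floxed replicate 1 or 2 was left out, and -0.70 and -0.25 when Cre replicate 1 or 2 was. Fgf9 was below the filter, at 0.889 and 0.703 FPKM in the Cre-labelled libraries, against 0.787 and 1.02 FPKM in the floxed-labelled ones, with overlapping groups and a log2 fold change of -0.24 ± 0.54 (SE) in a fit of all genes with a count (adjusted p = 0.859).

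Among the receptors, Fgfr1 and Fgfr2 encode kinases that mediate most signalling by these ligands, with FGFR1 typical of mesenchyme and muscle and FGFR2 IIIb of epithelium. Counts are given per gene, so the IIIb and IIIc splice forms were not separated. Fgfr1 held 15.9 and 16.9 FPKM in the Cre-labelled libraries (3113 and 2914 counts), against 10.7 and 7.10 FPKM in the floxed-labelled ones (2432 and 1276 counts). Both Cre-labelled libraries were above both floxed-labelled ones. The log2 fold change was 0.89 ± 0.26 (SE; adjusted p = 0.254 in edgeR's test and 0.0616 in DESeq2), and it was 1.16 without floxed replicate 1 and 0.65 without floxed replicate 2. Fgfr1 (ENSMUSG00000031565) is at 25513654 to 25575718 of chromosome 8, plus strand, with 1.66% of its exon bases shared.

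Fgfr2 held 12.6 and 13.3 FPKM in the Cre-labelled libraries, against 19.0 and 12.9 FPKM in the floxed-labelled ones. Floxed replicate 1 was high, and floxed replicate 2 stood between the Cre-labelled libraries in FPKM and just above both on the scaled counts. The log2 fold change was -0.29 ± 0.25 (SE, adjusted p = 0.629 in edgeR's test), from -0.51 without floxed replicate 2 to -0.046 without floxed replicate 1. Of the exon bases of Fgfr2, 3.04% are shared with Ctbp2, a gene on the same strand.

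The ratio of Fgfr2 to Fgfr1 within a library does not depend on the scaling between libraries. It was 0.791 and 0.787 in the Cre-labelled libraries, against 1.77 and 1.81 in the floxed-labelled ones. The values were nearly the same within each group, and Fgfr1 was the more abundant gene in the Cre-labelled libraries and Fgfr2 in the floxed-labelled ones. The difference of the log2 ratio was -1.18, from -1.20 to -1.17 with any 1 library left out, with group SDs of 0.0053 in the Cre-labelled libraries and 0.026 in the floxed-labelled ones (exact two-sided permutation p = 0.333, the smallest possible here). The floxed-labelled libraries differed 1.51-fold in Fgfr1 and 1.47-fold in Fgfr2, and hardly in their ratio.

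Fgfrl1 encodes a receptor that binds these ligands but lacks the kinase domain, and it was the most abundant receptor gene per length in 3 of the 4 libraries, with Fgfr2 above it in floxed replicate 1. It held 23.2 and 25.4 FPKM in the Cre-labelled libraries, against 17.2 and 21.6 FPKM in the floxed-labelled ones, a log2 fold change of 0.32 ± 0.23 (SE, adjusted p = 0.58 in edgeR's test), which was 0.12 without floxed replicate 1 and 0.54 without floxed replicate 2. The groups did not overlap, though floxed replicate 2 was close to Cre replicate 1. Fgfr3, a further receptor kinase, was below the filter at 0.789 and 1.13 FPKM in the Cre-labelled libraries, against 0.639 and 0.246 FPKM in the floxed-labelled ones. Its groups did not overlap either, with a log2 fold change of 1.07 ± 0.52 (SE, adjusted p = 0.281) in the fit of all genes with a count, and 13.9% of its exon bases lie over a gene on the opposite strand.

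**Figure D2:**
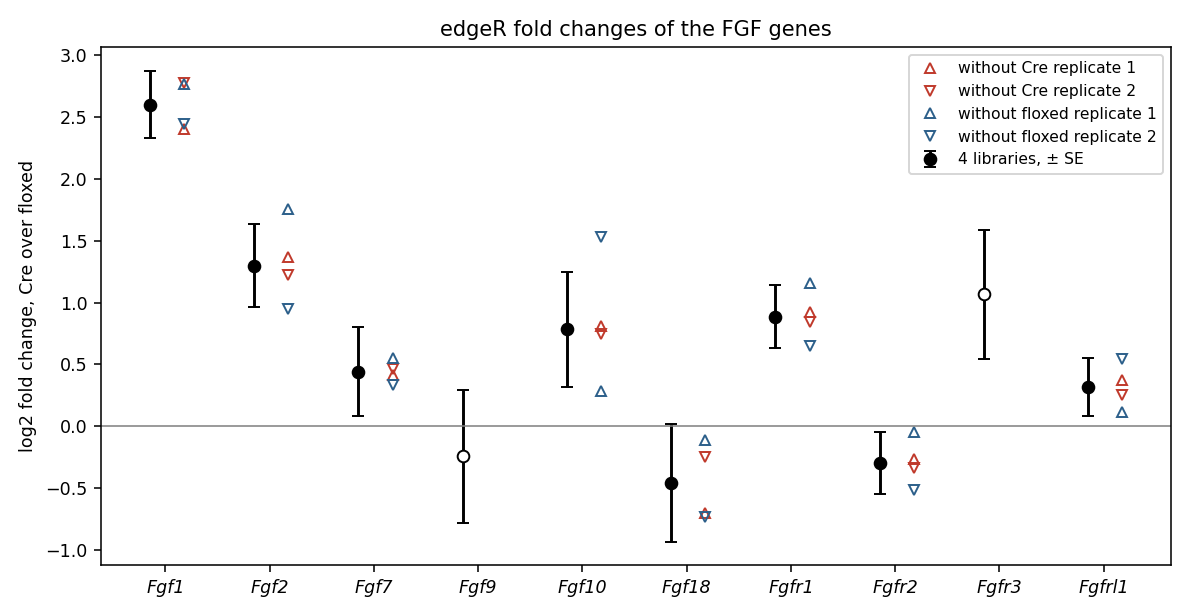
Log2 fold change, Cre-labelled libraries over the floxed-labelled ones, for each FGF gene by edgeR with its SE (black), and with 1 library left out (triangles). Open circles come from the fit of all genes with a count, and Fgf1 stays between 2.40 and 2.77 whichever library is left out while Fgf10 runs from 0.28 to 1.53.

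Of the summed FPKM of the 4 receptor genes, Fgfr1 held 30.3% and 29.8% in the Cre-labelled libraries, against 22.6% and 17.0% in the floxed-labelled ones. Fgfr2 held 24.0% and 23.4% in the Cre-labelled libraries, against 40.0% and 30.8% in the floxed-labelled ones. Neither share overlapped between the groups (exact two-sided permutation p = 0.333 for each). Shares of a common sum depend on each other, and these restate in part the ratio of Fgfr2 to Fgfr1. Fgfrl1 held 44.3% and 44.8% in the Cre-labelled libraries, which lay between the 36.1% and 51.7% of the floxed-labelled ones (p = 1.0, exact). Fgfr3 held 1.50% and 1.99% in the Cre-labelled libraries, against 1.35% and 0.587% in the floxed-labelled ones (exact p = 0.333). All 7 shares and ratios were compared with the same exact test, and adjustment over them cannot bring a p below 0.333.

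**Figure D3:**
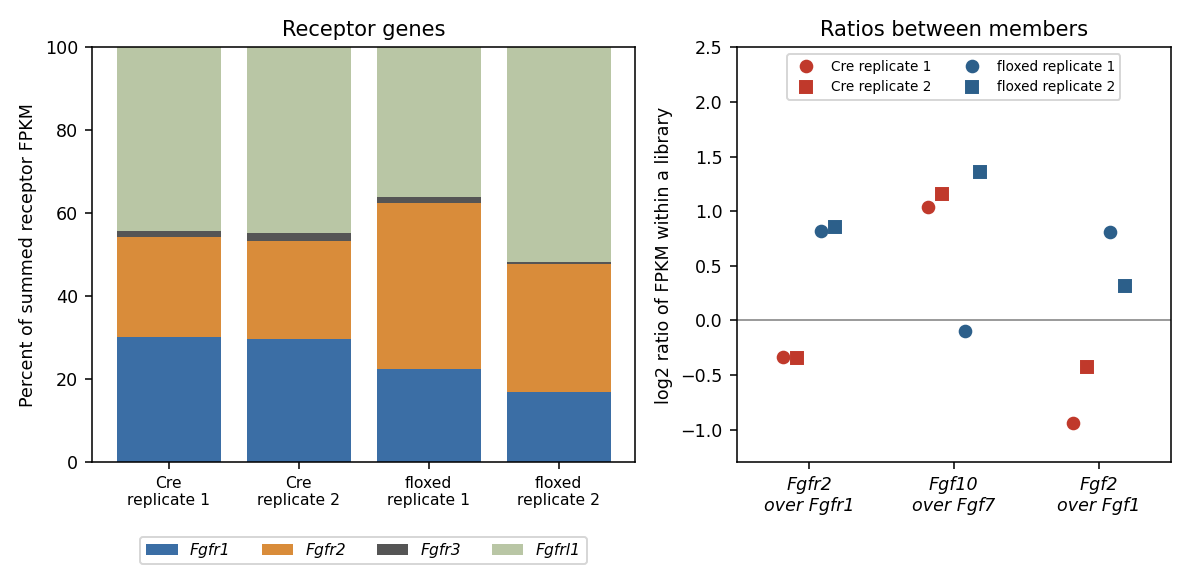
Left, the percent of the summed receptor FPKM held by each of the 4 receptor genes in each library; right, log2 ratios of FPKM between pairs of FGF genes within a library, with the Cre-labelled libraries in red and the floxed-labelled ones in blue. The ratio of Fgfr2 to Fgfr1 lies below 0 in both Cre-labelled libraries and above 0 in both floxed-labelled ones, with the replicates of each group nearly level.

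By mean FPKM, the order in the Cre-labelled libraries was Fgfrl1, Fgfr1, Fgfr2, Fgf1, Fgf2, Fgf10, Fgf18, Fgf7, Fgfr3 and Fgf9. Neighbours in this order did not overlap except Fgf18 with Fgf7 and Fgfr3 with Fgf9. In the floxed-labelled libraries the order was Fgfrl1, Fgfr2, Fgfr1, Fgf18, Fgf10, Fgf2, Fgf1, Fgf7, Fgf9 and Fgfr3. There Fgfrl1 overlapped Fgfr2, as did Fgf18 with Fgf10, Fgf10 with Fgf2, Fgf2 with Fgf1 and Fgf1 with Fgf7. Fgf1 was the highest of the 6 ligand genes in both Cre-labelled libraries.

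Marker genes of other cell types differed between the same libraries. Over all genes tested, 24.7% were higher and 23.6% lower in the Cre-labelled libraries without overlap, against which the counts below stand. All 8 smooth muscle markers were higher in both Cre-labelled libraries than in either floxed-labelled one, 4 of them at an unadjusted p under 0.05, with the summed levels given above. Of 6 mesothelium markers, 5 were higher in the same way (summed 64.6 and 47.4 FPKM in the Cre-labelled libraries, against 39.4 and 23.0 in the floxed-labelled ones), and so were 4 of 6 tested oviduct and ovary markers (summed 101 and 297 FPKM in the Cre-labelled libraries, against 23.4 and 44.8 in the floxed-labelled ones), of which Hsd3b1 had 0 counts in both floxed-labelled libraries. The oviduct and ovary sums were uneven: Ovgp1 held 56.0 and 243 FPKM in the Cre-labelled libraries, against 0.489 and 23.4 in the floxed-labelled ones. In floxed replicate 1 the largest part was Foxl2 at 17.2 FPKM, whose groups overlapped, and in the other libraries it was Ovgp1. Hsd3b1 and Foxj1 of that list and Bnc1 of the mesothelium list reached the filter only through the Cre-labelled libraries, where they are high, and had to differ; of the markers that reached it in each group alone, 2 of 4 for oviduct and ovary and 4 of 5 for mesothelium were higher without overlap. Of 8 stroma markers 3 were higher without overlap and 4 lower, while their summed level was higher (1703 and 1593 FPKM in the Cre-labelled libraries, against 1160 and 1255). Of 8 epithelium markers 2 were higher and 2 lower without overlap, with summed levels that overlapped (1128 and 941 FPKM in the Cre-labelled libraries, against 871 and 1369). Of 7 leukocyte markers, 6 were tested and 4 of those were lower without overlap (76.9 and 71.6 FPKM in the Cre-labelled libraries, against 153 and 121). Endothelium markers summed to 79.0 and 81.4 FPKM in the Cre-labelled libraries, against 112 and 86.4 in the floxed-labelled ones, with 3 of 6 lower without overlap. Of 4 gland markers 2 were tested, and the summed level was 6.25 and 11.5 FPKM in the Cre-labelled libraries, against 29.1 and 14.3. The 2 tested markers differed from each other. Cxcl15 was lower without overlap (2.87 and 7.22 FPKM in the Cre-labelled libraries, against 25.1 and 11.6). The groups of Foxa2 overlapped (3.13 and 4.02 FPKM in the Cre-labelled libraries, against 3.82 and 2.64). Spink1 and Prss29 had at most 6 counts in any library, too few to compare. Of 5 adipocyte markers 0 were without overlap, at 92.1 and 186 FPKM summed in the Cre-labelled libraries, against 277 and 113. Hand2 held 13.3 and 9.83 FPKM in the Cre-labelled libraries, against 25.7 and 15.7 in the floxed-labelled ones, and had a log2 fold change of -0.83 with an unadjusted p of 0.0396 and an adjusted p of 0.33 in edgeR's test. The part of these cell types, and of Hand2, in the FGF differences was not tested, and in bulk tissue fewer cells of a type and less RNA per cell cannot be told apart.

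In the rest of the pathway, 2 of 55 genes tested (Fgf11 and Dusp6) were higher and 2 (Sdc4 and Dusp4) lower at an unadjusted p under 0.05. That is 3.64% in each direction, below the 7.3% higher and 6.58% lower over all genes tested. Of 16 other FGF family genes, listed as other FGF ligands, 10 were found, and 2 reached the filter. Fgf11, which encodes an intracellular FGF homologous factor and not a receptor ligand, held 4.29 and 4.07 FPKM in the Cre-labelled libraries, against 1.16 and 1.14 FPKM in the floxed-labelled ones, without overlap and with close replicates. Its log2 fold change was 1.86 ± 0.33 (SE; adjusted p = 0.133 in edgeR's test and 0.00038 in DESeq2). Fgf12, of the same intracellular group, held 1.54 and 1.34 FPKM in the Cre-labelled libraries, against 0.330 and 0.549 FPKM in the floxed-labelled ones, was below the filter, and had a log2 fold change of 1.64 with an adjusted p of 0.0224 in the edgeR fit of all genes with a count. Fgf16 had a log2 fold change of -0.52 (adjusted p = 0.719 in edgeR's test), but -1.04 without floxed replicate 1 and 0.27 without floxed replicate 2. The other 7, Fgf5, Fgf8, Fgf13, Fgf14, Fgf17, Fgf21 and Fgf22, had at most 44 counts in any library.

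Of 5 further receptor-side genes, Fgfr4, Kl, Klb and Fgfbp1 were below the filter, and Fgfbp3, a secreted carrier of FGFs, held 2.96 and 2.26 FPKM in the Cre-labelled libraries, against 3.84 and 6.67 FPKM in the floxed-labelled ones, a log2 fold change of -1.02 (adjusted p = 0.399 in edgeR's test; -1.40 without floxed replicate 1 and -0.51 without floxed replicate 2).

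Of 24 genes for heparan sulfate proteoglycans and the enzymes that build or trim their chains, 21 were tested, at an unadjusted p under 0.05 none was higher and 1 lower (6.58% of all genes tested were lower), and the median log2 fold change was -0.11. The lower one was Sdc4, a cell-surface proteoglycan, with 37.7 and 33.4 FPKM in the Cre-labelled libraries, against 66.5 and 115 FPKM in the floxed-labelled ones. Its log2 fold change was -1.36 ± 0.35 (SE; adjusted p = 0.22 in edgeR's test and 0.0128 in DESeq2), and it was -0.86 without floxed replicate 2 and -1.74 without floxed replicate 1. The glypican genes Gpc4 and Gpc1, next by p, had log2 fold changes of 0.62 and -1.09, the value of Gpc1 resting on floxed replicate 1 (-0.22 without it, against -1.64 without floxed replicate 2), and 18.9% of the exon bases of Gpc1 lie over a gene on the opposite strand.

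Of 19 adaptor and kinase genes downstream of the receptors, 18 were tested, with a median log2 fold change of 0.10. In either direction 0 had an unadjusted p under 0.05, where 7.3% of all genes tested were higher and 6.58% lower. The 3 of smallest p were Sos2 at 0.57 and Sos1 at 0.69, which load RAS with GTP, and Braf, a kinase below RAS, at 0.47. Their sizes turned on 1 floxed library: Sos1 was at 1.13 without floxed replicate 1 and 0.34 without floxed replicate 2, Sos2 at 0.80 and 0.37, and Braf at 0.68 and 0.28 in the same order. In those fits the lone floxed library is assumed to vary like the Cre-labelled pair, so only the sizes are given for these 3 genes. Of 17 feedback inhibitors and targets of the cascade, 13 were tested, 1 higher and 1 lower had an unadjusted p under 0.05, near the 7.3% and 6.58% of all genes tested, and the median was 0.011. Dusp6, a phosphatase of ERK that FGF signalling is known to induce, held 26.3 and 26.8 FPKM in the Cre-labelled libraries, against 14.1 and 16.9 FPKM in the floxed-labelled ones, without overlap. Its log2 fold change was 0.77 ± 0.22 (SE, adjusted p = 0.251 in edgeR's test and 0.118 in DESeq2). Dusp4, a related phosphatase of the nucleus, held 1.56 and 1.61 FPKM in the Cre-labelled libraries, against 3.07 and 3.57 FPKM in the floxed-labelled ones, a log2 fold change of -1.07 ± 0.35 (SE, adjusted p = 0.294 in edgeR's test). Spry1, an inhibitor of the receptor kinases, was at -0.57 (-0.78 without floxed replicate 1 and -0.34 without floxed replicate 2), and 24.4% of its exon bases lie over a gene on the opposite strand. The known FGF target genes Etv5 and Spry2 had log2 fold changes of 0.011 and 0.0069, and Etv4 was below the filter. Dusp6, Dusp4 and Spry1 thus did not share a direction.

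**Figure D4:**
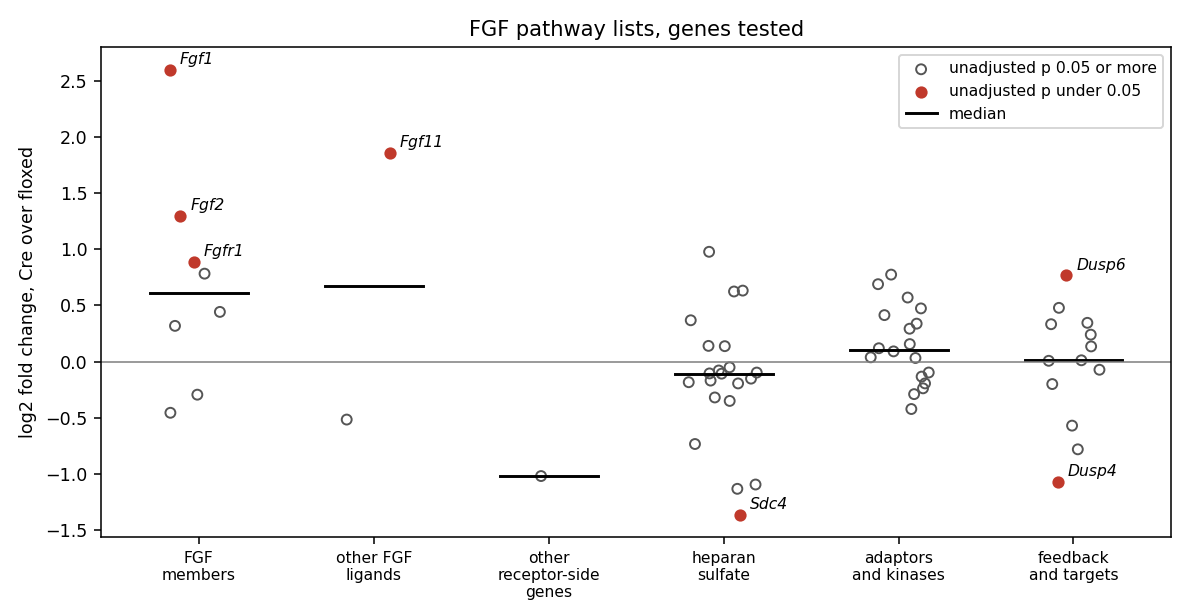
Log2 fold change, Cre-labelled libraries over the floxed-labelled ones, of the tested genes in each FGF pathway list, with list medians as bars and genes at an unadjusted p under 0.05 in red. Fgf1, Fgf11 and Fgf2 reach the highest values, and the adaptor and feedback lists centre near 0, at medians of 0.10 and 0.011.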

How the data were processed

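The authors deposited 1 table per library with whole-number read counts per Ensembl gene, not normalized, and FPKM beside them, per the file headers. HISAT2 and HTSeq 0.13.5 are the tools, and GRCm38 the build, in the submitters' processing notes, without settings. The deposited FPKM equals the count over gene length and total count, with 1 length per gene in all libraries (tolerance 1e-06, 23463 of 23463 genes). Coordinates and exon overlaps are from GENCODE mouse release M21 (GRCm38). Genes with a mean of at least 1 FPKM were tested (13513; 15032 set aside) with edgeR 4.0.16 quasi-likelihood tests (R 4.3.3) on the counts, TMM scaling, a group term alone, 2 residual degrees of freedom and Benjamini-Hochberg adjustment over all genes tested. The SE divides the log2 fold change by the square root of F. Groups were called without overlap on TMM-scaled counts. Shares and ratios use FPKM within a library. Alternatives were scaling, filter, DESeq2 1.42.0, limma 3.58.1 on log2(FPKM + 1) and log2(FPKM + 0.1), the replicate number as a block, and each library left out. The procedure was run on simulated counts with known changes, each larger than that of any member except Fgf1. Smaller changes were not covered. The members and lists were chosen with earlier results of these data known. The named genes were the members, Smad7 and the 3 genes of smallest p in each list. Fgf12, Hand2, Cxcl15, Foxa2, Ovgp1, Foxl2, Etv5, Spry2 and other genes named for low or zero counts were chosen after their values were seen. Upstream sequences are from RefSeq. Counting error alone limits genes with few counts.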

Additional observations from a re-analysis of the deposited data

How the results depend on the processing

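The log2 fold changes of the 8 tested members kept their direction under other scaling, no filter, DESeq2, limma on log2(FPKM + 1) and log2(FPKM + 0.1), the replicate block and each library left out, and so did those of the 4 members that reached a filter of 5 FPKM (Fgf1, Fgfr1, Fgfr2 and Fgfrl1). The number of members called higher at an adjusted p under 0.05 was 0 in edgeR, 2 with no filter on low genes and 2 with DESeq2 (Fgf1 and Fgf2 each time), and 0 to 4 with 1 library left out; none was called lower. Without floxed replicate 1 the 3 were Fgf1, Fgf2 and Fgfr1, where 17.5% of all genes were called higher, and without floxed replicate 2 Fgf10 joined them, where 10.4% were; the lone floxed library is then assumed to vary like the Cre-labelled pair. Over all genes the calls were 995 higher and 933 lower with no filter, 1 and 0 with a filter of 5 FPKM, 438 and 405 with DESeq2, and 0 to 2364 higher and 0 to 1885 lower with 1 library left out. Pathway list genes called were 2 higher and 3 lower with no filter, 1 and 1 with DESeq2, and 0 to 14 higher and 0 to 7 lower with 1 library left out. Without floxed replicate 1 the share of Fgfrl1 differed by -7.16 percentage points and the log2 ratio of Fgf10 to Fgf7 by -0.27, and without floxed replicate 2 Fgf16 was at 0.27 (-1.04 without floxed replicate 1), each with its sign turned; the range with 1 library left out was -7.16 to 8.40 for the share and -0.27 to 1.19 for the ratio. The cause was not tested beyond the library left out. The labels do not say whether the replicate numbers pair the libraries. Deviations of same-numbered libraries from their group means had a correlation of -0.061, and with 2 libraries per group this single value cannot decide it. With the replicate block 0 members were called, with Fgf1 at 2.60 (adjusted p = 0.115 in edgeR's test).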
